A study of Homo sapiens with 24 samples.

Results

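The genes described here build, run and police the protein-folding system of the endoplasmic reticulum (ER): 37 named genes of the unfolded protein response, of chaperoning and of ER-associated degradation (ERAD). They were taken by gene symbol from the deposited count table. The rule uses no measured value, but the list was drawn up with earlier results of these data known, so the shares of members set beside those of all genes are descriptions. Of the 37, 36 had a row among the 37411 genes of that table and 35 were among the 17409 genes with enough counts to test. DERL3 was not analysed here, and ATF6B, a relative of ATF6, held 2 counts over all 24 libraries and was not tested. ATF6B overlaps TNXB and AL662884.2 on the same strand. No source used here says how reads of overlapping genes were counted, so this does not show that ATF6B was silent. By role they were 5 sensors and transcription factors (4 tested), 17 chaperones and folding enzymes, 10 ERAD genes (9 tested) and 5 genes of protein translocation and transport.

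The cells were PC9, an established line from a human lung cancer of the non-small cell type, in RPMI medium. For 6 or 24 h the medium held asparagine or lacked it (cells can make this amino acid themselves) and carried either 200 nM ISRIB or its vehicle, 0.004% DMSO. ISRIB is a small molecule that keeps the translation factor eIF2B active when eIF2 is phosphorylated. The 8 groups held 3 biological replicates each, all of 1 cell line, and the labels do not say what a replicate number marks.

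Secretory and membrane proteins enter the ER through the SEC61 channel, fold with the help of the HSP70 family member HSPA5 (BiP), HSP90B1, the lectins CALR and CANX and the disulfide isomerases, and are pulled back to the cytosol for degradation when they fail. Unfolded protein is sensed by IRE1 (ERN1), which splices XBP1 mRNA, by ATF6, which is cut in the Golgi to release a transcription factor, and by the kinase PERK. PERK phosphorylates eIF2, and so does GCN2 when amino acids run short. Phosphorylated eIF2 favours translation of ATF4, and this shared output is called the integrated stress response, the step on which ISRIB acts.

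The libraries carried 16737384 to 27495861 gene-assigned counts with 22911 to 25642 genes detected. Levels are given as CPM, the counts of a gene scaled to the size of its library. All 7 epithelial markers examined were abundant, from CDH1 (at least 272 CPM) to KRT8 (up to 4770 CPM). Of 9 markers of other cells, PTPRC, CD3E, COL3A1, PDGFRB, ALB and SFTPC stayed at or below 0.398 CPM in every library, while PECAM1 (0.739 to 5.67 CPM), COL1A1 (3.59 to 13.1 CPM) and CDH5 (2.45 to 55.4 CPM) were above that. Counts also varied with transcript GC content to a different degree in each library, even within a group: the log2 slope per 10 GC points ran from -0.40 to 0.23. The counts are of whole genes, so the spliced and unspliced forms of XBP1 mRNA are not separated, and protein, phosphorylation or ATF6 cleavage was not measured.

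The promoters shown here are those of the 6 members that rose 6 h after asparagine withdrawal with vehicle, and of CANX and HSP90B1. CANX and HSP90B1 had the largest mean CPM among the members that did not pass there. A search covered the 250 bases before each RefSeq transcript start (GRCh38.p14), on both strands, for the ER stress element ERSE (CCAAT, 9 bases, CCACG), for ERSE-II (ATTGG, 1 base, CCACG), for the core of the unfolded protein response element (TGACGTG) and for the C/EBP-ATF response element CARE bound by ATF4 (TGATG, 1 base, AA, 1 base). Capitals mark the matches, the base before the start is -1, and each sequence runs 5′ to 3′ along the gene. Bases that GENCODE 29 places in an untranslated region were left out, which removed the whole window of ERN1 and DNAJB9, and for CANX and HSP90B1 the matches are shown alone.
XBP1, chr22:28800598-28800819, minus strand, from -250 to -29, with an ERSE at -52 to -34: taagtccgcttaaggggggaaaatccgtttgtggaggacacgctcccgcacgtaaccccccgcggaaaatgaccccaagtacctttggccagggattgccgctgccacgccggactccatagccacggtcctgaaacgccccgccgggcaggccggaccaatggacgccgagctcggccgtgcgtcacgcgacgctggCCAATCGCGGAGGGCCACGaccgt
HERPUD1, chr16:56931892-56932047, plus strand, from -250 to -95, with a CARE on the opposite strand at -177 to -169 and an ERSE-II at -117 to -107: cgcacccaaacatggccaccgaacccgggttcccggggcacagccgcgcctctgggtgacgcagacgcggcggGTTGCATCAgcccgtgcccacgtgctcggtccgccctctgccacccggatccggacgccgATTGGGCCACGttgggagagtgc
HSPA13, chr21:14383188-14383396, minus strand, from -250 to -42, without a match: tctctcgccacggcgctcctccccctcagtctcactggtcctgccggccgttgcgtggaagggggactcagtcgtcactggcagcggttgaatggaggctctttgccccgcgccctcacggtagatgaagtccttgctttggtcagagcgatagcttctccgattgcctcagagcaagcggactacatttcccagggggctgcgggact
HSPA5, chr9:125241344-125241593, minus strand, from -250 to -1, with an ERSE at -66 to -48: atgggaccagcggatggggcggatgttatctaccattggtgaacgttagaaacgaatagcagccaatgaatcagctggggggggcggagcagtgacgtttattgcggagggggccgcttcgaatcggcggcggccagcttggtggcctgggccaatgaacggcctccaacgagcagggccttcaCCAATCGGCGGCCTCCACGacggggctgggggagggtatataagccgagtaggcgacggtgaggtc
CANX, chr5:179698778-179698796, plus strand, an ERSE at -151 to -133: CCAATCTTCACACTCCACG
HSP90B1, chr12:103930216-103930234, plus strand, an ERSE at -194 to -176: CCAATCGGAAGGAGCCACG
HSP90B1, chr12:103930321-103930339, plus strand of the gene with the ERSE on the opposite strand, at -89 to -71: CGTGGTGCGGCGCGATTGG

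Among 35116 RefSeq promoters of the same length, 26 (0.074%) held an ERSE, and 7 members had one: CALR, CANX, CRELD2, HSP90B1, HSPA5, PDIA6 and XBP1. An ERSE-II was found in 18 promoters (0.0513%), among them those of HERPUD1, HYOU1 and SDF2L1. The element core TGACGTG stood in 591 promoters (1.68%), with DNAJC10 and HYOU1 among the members, and the CARE in 1100 (3.13%), with HERPUD1 the single member. Of the 33 members with an entry searched, 11 had at least 1 match. In the promoter of HYOU1 the core overlaps one of its ERSE-II matches. These are matches of letters within the window. The motifs were chosen as known elements of these stress pathways, so the shares are descriptions and not a test. No binding was measured, and a gene without a match may carry such an element elsewhere. Where a gene had several entries, the one with the most matches was used, a choice made after the matches were seen.

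**Figure D1:**
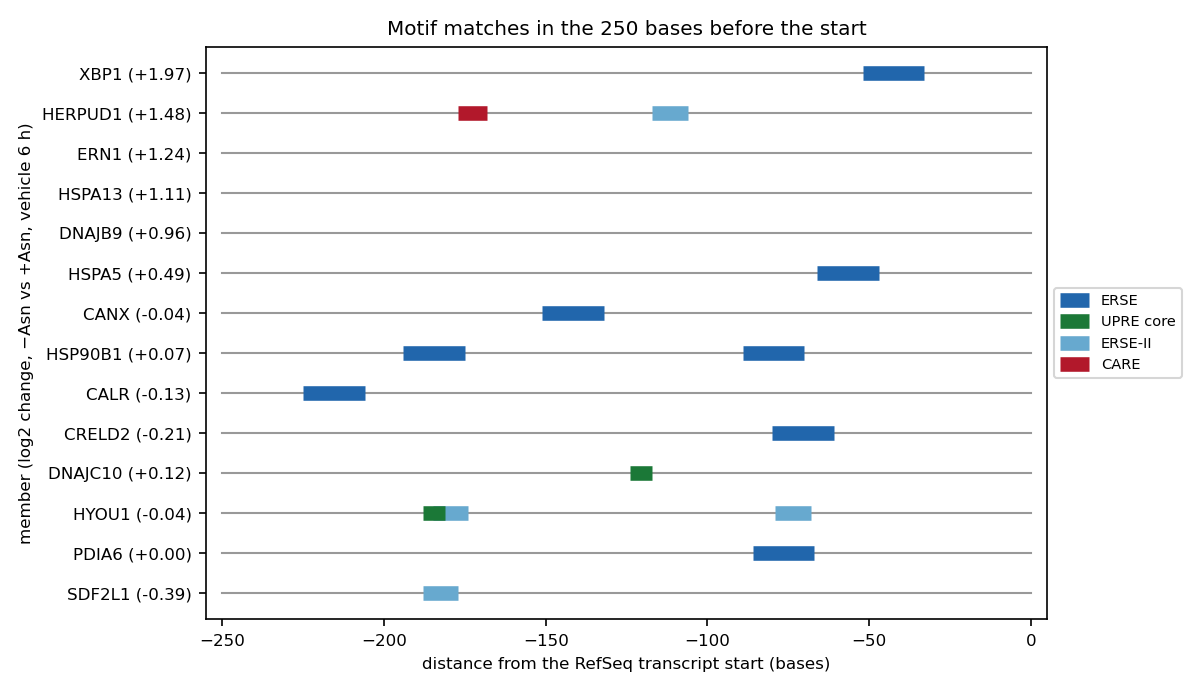
Motif matches in the 250 bases before the RefSeq start of 14 members. The horizontal axis is the distance from the transcript start in bases, each row is a member with its log2 change after asparagine withdrawal with vehicle at 6 h, and coloured bars are matches. ERSE matches stand in XBP1 and HSPA5, which rose, and in CANX, HSP90B1, CALR, CRELD2 and PDIA6, which did not pass the test.

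Levels in a control group, vehicle with asparagine at 6 h, are given as CPM per kilobase of exon (GENCODE 29 exons), the scale on which genes can be compared. No library was taken before treatment, so these are not shown to be levels without stress. CANX (305.0) and CALR (291.5) stood first, followed by HSP90B1 (163.1), HSPA5 (143.5), PDIA4 (120.0) and P4HB (103.9). The level of HSP90B1 is uncertain, since pseudogene copies that can share its reads were at 181 to 342 CPM (HSP90B2P) and 90.2 to 212 CPM (HSP90B3P) over the libraries. The same holds for PDIA3, whose copy PDIA3P1 was at 139 to 199 CPM. At the other end were SEC24D (1.19), ERN1 (1.64), DNAJB9 (2.30) and CREB3L2 (2.69). XBP1 was at 14.2, EDEM1 at 17.9 and HERPUD1 at 3.96. Of the genes that rose at 6 h, HSPA5 stood among the highest members, and XBP1 and HSPA13 (12.2) near the middle. HERPUD1, DNAJB9 and ERN1 stood near the low end. In GENCODE 29 (GRCh38) the protein-coding genes that rose at 6 h lie at chr22:28794555-28800597 (XBP1, ENSG00000100219.16), chr17:64039142-64130819 (ERN1, ENSG00000178607.15), chr16:56932048-56944863 (HERPUD1, ENSG00000051108.14), chr9:125234853-125241330 (HSPA5, ENSG00000044574.7), chr21:14371115-14383484 (HSPA13, ENSG00000155304.5) and chr7:108569568-108574850 (DNAJB9, ENSG00000128590.4).

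Asparagine withdrawal with vehicle raised 6 members at 6 h and lowered none. They were the transcription factor XBP1, the sensor ERN1, the ERAD membrane scaffold HERPUD1 and the chaperones HSPA13, DNAJB9 and HSPA5. Rises ran from 1.41-fold for HSPA5 to 3.92-fold for XBP1 (edgeR's quasi-likelihood test, Benjamini-Hochberg adjusted p below 0.05 over all genes tested). Those 6 are 17.1% of the 35 members tested, where 4.57% of all genes passed, 3.31% rising and 1.26% falling. The median log2 change over the 35 members was 0.01, the same to 2 decimals as the 0.01 over all genes.

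XBP1 encodes the factor that IRE1 activates by splicing its mRNA. With asparagine its level was 42.7, 40.1 and 46.3 CPM in the 3 vehicle libraries at 6 h. Without asparagine it was 160.0, 177 and 169.6 CPM, every value more than 3 times the highest control. The log2 change was 1.97 ± 0.10 (SE; adjusted p = 2.63e-11). ERN1, the sensor that splices it, stood at 18.5, 18.4 and 16.5 CPM with asparagine and 40.8, 43.2 and 41.9 CPM without it, again with no overlap. Its log2 change was 1.24 ± 0.10 (SE; adjusted p = 7.65e-08). The other sensors and factors did not pass: ATF6 was at 58.4 ± 3.88 and 60.6 ± 1.88 CPM (means ± SD, n = 3), and the ER-anchored factor CREB3L2 changed by a log2 value of 0.11 ± 0.09 (SE).

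Among the 17 chaperones and folding enzymes, 3 rose. HSPA13, an HSP70-family member of the ER, was at 53.2, 46.9 and 52.9 CPM with asparagine and 108, 106 and 117 CPM without it, a log2 change of 1.11 ± 0.13 (SE; adjusted p = 6.22e-06). DNAJB9 (ERdj4), a co-chaperone that holds HSPA5 on IRE1, was at 6.81, 6.36 and 6.43 CPM against 13.5, 12.4 and 12.4 CPM, a log2 change of 0.96 ± 0.13 (SE; adjusted p = 5.63e-05). For HSPA5 itself the levels were 535, 579 and 568 CPM with asparagine and 721, 826 and 823 CPM without it. The groups did not overlap for any of the 3, and the log2 change of HSPA5 was 0.49 ± 0.11 (SE; adjusted p = 0.00803). The share of all genes whose groups did not overlap was not counted, here or elsewhere. Without replicate 1 of vehicle with asparagine the value for HSPA5 was 0.46, with an adjusted p of 0.0533. DNAJB9 overlaps THAP5 and PNPLA8 on the opposite strand, and no source used here says whether counting used the strand.

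The other 14 folding genes did not pass. HSP90B1, the ER member of the HSP90 family, changed by a log2 value of 0.07 ± 0.17 (SE), CANX by -0.04 ± 0.10, CALR by -0.13 ± 0.07 and PDIA4 by -0.06 ± 0.09. The disulfide isomerases PDIA3 (0.12 ± 0.16), PDIA6 (0.00 ± 0.08) and P4HB (-0.04 ± 0.09) lay as near to 0. So did the HSPA5 co-chaperones DNAJB11 (0.10 ± 0.12), DNAJC3 (-0.04 ± 0.14) and DNAJC10 (0.12 ± 0.16), the nucleotide exchange factor HYOU1 (-0.04 ± 0.08) and the secreted protein MANF (-0.01 ± 0.10). SDF2L1, a partner of DNAJB11, was at -0.39 ± 0.28 and CRELD2, an ER protein that can be secreted, at -0.21 ± 0.17. With standard errors near 0.1 for most of these genes, a p that missed the threshold leaves room for small changes.

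In the ERAD group HERPUD1 alone rose. It was at 20.4, 20.1 and 20.7 CPM with asparagine and 53.4, 57.7 and 59.8 CPM without it, a log2 change of 1.48 ± 0.11 (SE; adjusted p = 2.85e-08). EDEM1, a lectin-like factor that hands misfolded glycoproteins to ERAD, was at 117, 114 and 131 CPM and 147, 138 and 166 CPM. Its log2 change of 0.32 ± 0.11 (SE; adjusted p = 0.109) did not pass. With the replicate number as a block over all 24 libraries, EDEM1 passed (0.32, adjusted p = 0.0428) and 7 members were called, beside 5.7% of all genes. Libraries of equal number had correlated deviations in this comparison (0.284 to 0.311) but not in several others that the same block covers. The EDEM1 call thus rests on a pairing that the labels do not state. The ubiquitin ligase SYVN1 (0.00 ± 0.21, SE) and its partner SEL1L (0.20 ± 0.10) did not pass, nor did the EDEM1 relatives EDEM2 (-0.07 ± 0.11) and EDEM3 (-0.16 ± 0.22), the lectin OS9 (0.01 ± 0.07) and the Derlins, membrane proteins of the export channel, DERL1 (0.16 ± 0.07) and DERL2 (0.01 ± 0.10).

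None of the 5 translocation and transport genes passed. The channel subunits SEC61A1 (-0.14 ± 0.10) and SEC61B (0.02 ± 0.10), the translocon-associated SSR1 (0.04 ± 0.10) and the ER membrane protein WFS1 (-0.32 ± 0.20), altered in Wolfram syndrome, are in that group with SEC24D, a cargo adaptor of the COPII coat. SEC24D was at 12.4, 11.9 and 11.0 CPM with asparagine and 9.34, 10.2 and 9.34 CPM without it, with a log2 change of -0.29 ± 0.10 (SE; adjusted p = 0.101).

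**Figure D2:**
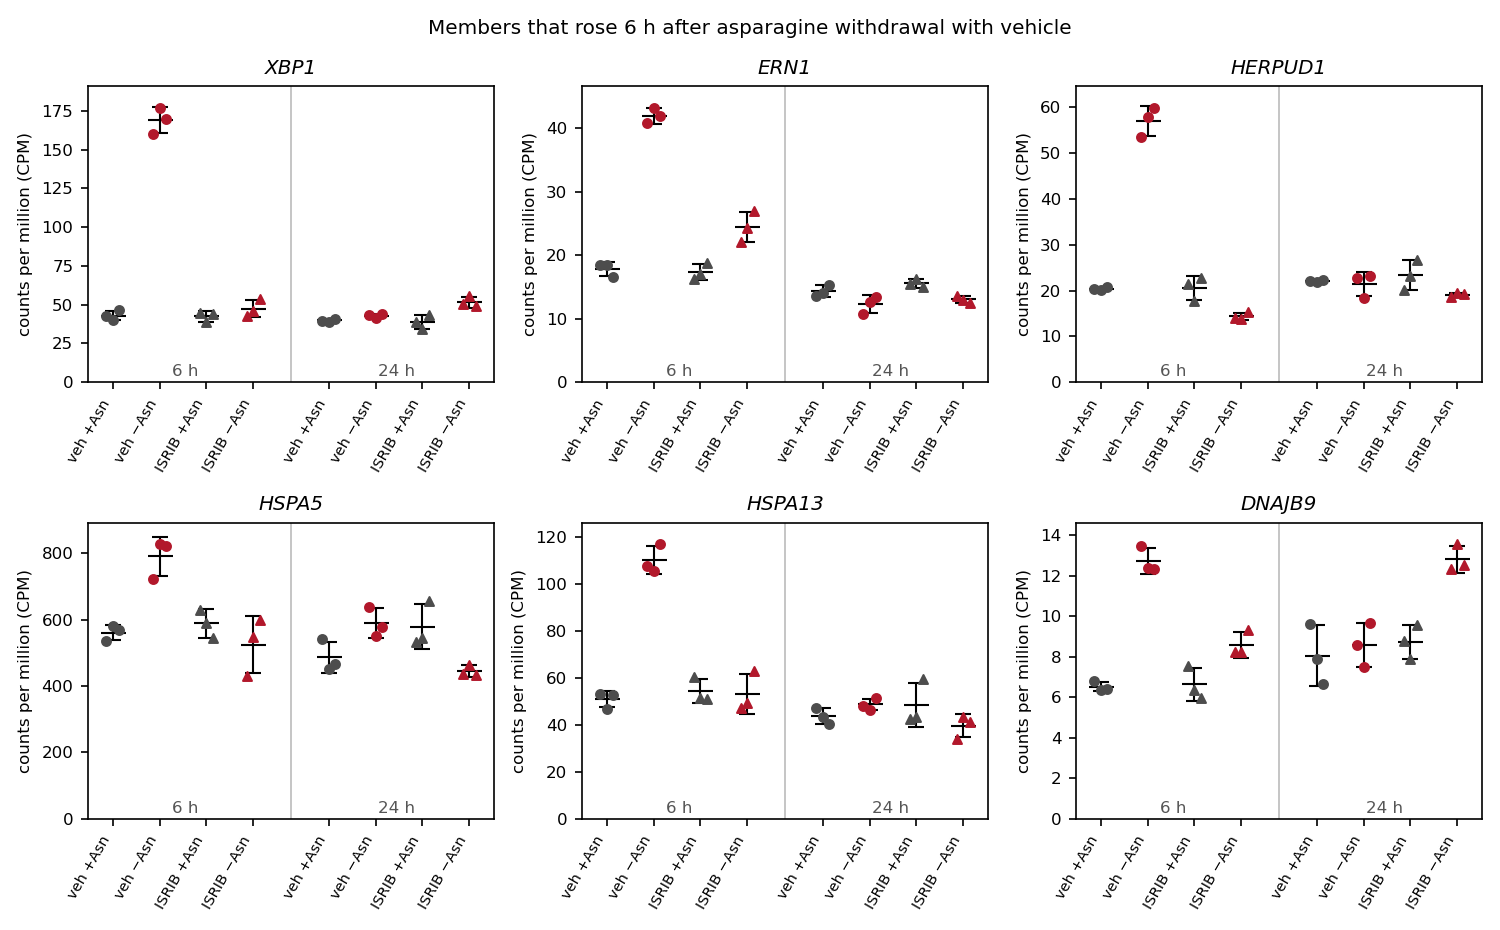
CPM of the 6 members that rose at 6 h, in each of the 24 libraries. Points are libraries, bars are the mean and SD of 3, red marks medium without asparagine and triangles mark ISRIB. For XBP1 the 3 vehicle libraries without asparagine at 6 h sit between 160.0 and 177 CPM, and all other libraries lie at or below 55.8 CPM.

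The same 6 members, and no others, were lower with ISRIB than with vehicle in medium without asparagine at 6 h. The count, 17.1% of the members, stands beside 2.19% of all genes called in that comparison, with 1.64% lower and 0.551% higher. The comparison uses the vehicle libraries without asparagine that also carried the rise, so its direction for these genes is not independent of it. HERPUD1 was at 14.1, 13.7 and 15.3 CPM with ISRIB, below every vehicle library with asparagine as well, and its log2 difference from vehicle without asparagine was -1.99 ± 0.11 (SE; adjusted p = 2.1e-10). XBP1 was at 42.6, 46.0 and 53.5 CPM, a range that overlaps the vehicle controls with asparagine, and its log2 difference was -1.83 ± 0.10 (SE; adjusted p = 1.05e-10). HSPA13 was at 47.0, 49.2 and 62.8 CPM, a log2 difference of -1.06 ± 0.13 (SE; adjusted p = 1.68e-05).

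ERN1, at 22.1, 24.3 and 27.0 CPM with ISRIB, lay between the 2 vehicle groups without touching either. Its log2 difference from vehicle without asparagine was -0.78 ± 0.10 (SE; adjusted p = 2.27e-05). HSPA5 was at 429, 546 and 598 CPM, a log2 difference of -0.59 ± 0.11 (SE; adjusted p = 0.00229). DNAJB9 was at 8.23, 8.22 and 9.34 CPM, also between the vehicle groups, with a log2 difference of -0.57 ± 0.13 (SE; adjusted p = 0.019). DNAJB9 is the least firm of the 6, since its adjusted p was 0.108 without replicate 1 of vehicle, 0.0848 without replicate 1 of ISRIB and 0.0819 without replicate 2 of ISRIB. The other 29 tested members did not pass, with log2 differences from -0.35 for SYVN1 to 0.26 for DNAJC3.

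Withdrawal within the ISRIB-treated cells at 6 h gave 3 calls: ERN1 rose, and HERPUD1 and SEC24D fell. These 3 were 8.57% of the members, where 2.3% of all genes passed, 1.63% rising and 0.666% falling. ERN1 was at 16.2, 17.1 and 18.7 CPM with ISRIB and asparagine, and its log2 change on withdrawal was 0.49 ± 0.10 (SE; adjusted p = 0.00757). HERPUD1, at 21.4, 17.7 and 22.7 CPM with ISRIB and asparagine, fell by 0.52 ± 0.11 (SE, log2; adjusted p = 0.0128). SEC24D went from 14.2, 13.1 and 12.5 to 10.7, 9.36 and 9.66 CPM, a log2 change of -0.42 ± 0.10 (SE; adjusted p = 0.0192). XBP1 did not pass here (0.16 ± 0.10). In place of 3 members 1 was called without replicate 1 of ISRIB with asparagine, or without replicate 2 or replicate 3 of ISRIB without asparagine. The share of all genes called is not given for this or later fits with a library left out.

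Whether withdrawal acted differently with ISRIB than with vehicle was tested as the interaction of medium and drug. At 6 h it was negative in 5 members, 14.3% of those tested, where 0.718% of all genes passed (0.661% negative, 0.0574% positive). On the log2 scale it was -2.0 ± 0.16 (SE; adjusted p = 1.13e-07) for HERPUD1, -1.82 ± 0.14 (SE; adjusted p = 8.65e-08) for XBP1 and -1.15 ± 0.18 (SE; adjusted p = 0.00129) for HSPA13. For ERN1 it was -0.74 ± 0.14 (SE; adjusted p = 0.00716) and for HSPA5 -0.66 ± 0.15 (SE; adjusted p = 0.0467). The value for HSPA5 is at the threshold: it passed without 2 of the 12 libraries in turn and missed without each of the other 10 (adjusted p from 0.0503 to 0.155). It also missed with RLE scaling (adjusted p = 0.0557), with the replicate number as a block (0.0527) and with limma (0.0792). DNAJB9 had an interaction of -0.59 ± 0.19 that did not pass.

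In medium with asparagine, ISRIB against vehicle passed the threshold in no member at either time. The share over all genes was 0.0% at 6 h and 0.0% at 24 h. At an unadjusted p below 0.05 there were 203 genes and 0 members at 6 h, and 248 genes and 1 member at 24 h, and DESeq2 called 0 genes at both times. The log2 differences of the 35 members ran from -0.29 (SDF2L1) to 0.21 (PDIA3) at 6 h and from -0.25 (SYVN1) to 0.25 (HSPA5) at 24 h. XBP1, for example, was at 45.0, 38.6 and 44.0 CPM with ISRIB at 6 h and 38.8, 34.7 and 43.1 CPM at 24 h, ranges that overlap those of the vehicle libraries.

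Asparagine withdrawal with vehicle for 24 h called none of the 35 members, and over all genes 0.00574% did (0.00574% higher, 0.0% lower), which is 1 gene by edgeR and 5 by DESeq2. At an unadjusted p below 0.05 there were 1271 genes and 5 members. XBP1 was at 39.5, 39.1 and 41.0 CPM with asparagine and 43.6, 41.2 and 43.8 CPM without it. HERPUD1 was at 22.0, 21.8 and 22.3 CPM and 22.6, 18.4 and 23.1 CPM, and ERN1 at 13.5, 14.1 and 15.3 CPM and 10.7, 12.6 and 13.5 CPM. The log2 changes of XBP1 (0.11 ± 0.10) and ERN1 (-0.22 ± 0.10) were small and did not pass.

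The change of the response between times was tested directly. The withdrawal response with vehicle was smaller at 24 h than at 6 h in 5 members, 14.3% of those tested, where 1.22% of all genes passed (1.03% smaller or more negative at 24 h, 0.195% the other way). The log2 difference between times was -1.87 ± 0.14 (SE; adjusted p = 1.03e-07) for XBP1, -1.52 ± 0.15 (SE; adjusted p = 7.46e-06) for HERPUD1 and -1.46 ± 0.14 (SE; adjusted p = 4.7e-06) for ERN1. It was -0.95 ± 0.18 (SE; adjusted p = 0.00549) for HSPA13 and -0.87 ± 0.19 (SE; adjusted p = 0.0166) for DNAJB9. HSPA5, at 541, 452 and 465 CPM with asparagine and 638, 550.0 and 579 CPM without it at 24 h, did not pass in that test. The call for DNAJB9 was lost without replicate 1 of vehicle without asparagine at 6 h (adjusted p = 0.0532), replicate 1 of vehicle with asparagine at 24 h (0.0677) or replicate 2 of vehicle without asparagine at 24 h (0.0646).

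A larger group of members stood low in cells that had been without asparagine for 24 h in the presence of ISRIB. Against vehicle in the same medium, 10 members were lower and DNAJB9 was higher, 31.4% of the 35 where 21.7% of all genes passed. Of the 10, 6 were chaperones and folding enzymes (HSP90B1, PDIA3, DNAJC10, HSPA5, CANX and PDIA6), 2 were ERAD genes (EDEM1 and DERL1) and the others were ATF6 and SEC24D. Over all genes 11.6% were lower and 10.1% higher. The median log2 difference was -0.14 over the 35 members and 0.00 over all genes. By role, 41.2% of the 17 folding genes passed and 22.2% of the 9 ERAD genes, the latter near the share of all genes.

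HSP90B1 was at 1068, 854 and 1055 CPM with vehicle and 615, 679 and 627 CPM with ISRIB, without overlap. Its log2 difference was -0.63 ± 0.17 (SE; adjusted p = 0.0123). PDIA3, the isomerase that works with CALR and CANX, was at 185, 155 and 155 CPM against 105, 122 and 105 CPM, a log2 difference of -0.58 ± 0.16 (SE; adjusted p = 0.0122). Near-identical pseudogene copies can share reads with both genes, and those copies were lower too: HSP90B2P by -0.59 (adjusted p = 0.00346), HSP90B3P by -0.65 (0.0234) and PDIA3P1 by -0.36 (0.000569). No source used here says how reads were split between a gene and its copies, so the levels of HSP90B1 and PDIA3 are uncertain.

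HSPA5 fell from 638, 550.0 and 579 CPM with vehicle to 436, 465 and 432 CPM with ISRIB, a log2 difference of -0.41 ± 0.11 (SE; adjusted p = 0.0116). CANX, the membrane-bound lectin chaperone, was at 2205, 1939 and 2101 CPM against 1677, 1740.3 and 1546 CPM, a log2 difference of -0.33 ± 0.10 (SE; adjusted p = 0.0198). PDIA6, an isomerase that attenuates IRE1, was at 294, 282 and 270.0 CPM against 227, 241 and 236 CPM (-0.27 ± 0.08; adjusted p = 0.0213). In each of the 3 the lowest vehicle library was above the highest ISRIB library, but calls were lost when some libraries were left out. HSPA5 lost its call without replicate 1 of vehicle (adjusted p = 0.063), and CANX without replicate 1 or 3 of either group (0.0547 to 0.087). PDIA6 lost it without replicate 1 of vehicle or replicate 1 or 3 of ISRIB (0.0516 to 0.0893). DNAJC10, a disulfide reductase that feeds ERAD, was at 205, 178 and 203 CPM against 131, 161 and 136 CPM and lay nearest to the threshold (-0.45 ± 0.16; adjusted p = 0.0444).

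ATF6 was the 1 signalling gene that fell, from 65.7, 58.5 and 63.1 CPM to 39.7, 45.4 and 36.8 CPM, a log2 difference of -0.62 ± 0.12 (SE; adjusted p = 0.00105). EDEM1 was at 113, 118 and 125 CPM against 80.1, 97.8 and 86.4 CPM (-0.43 ± 0.11; adjusted p = 0.00742). DERL1, a channel-like ERAD membrane protein, was at 91.8, 89.2 and 86.2 CPM against 72.8, 78.3 and 73.7 CPM (-0.25 ± 0.07; adjusted p = 0.0115). SEC24D had the smallest adjusted p of the members. It was at 18.3, 19.4 and 17.8 CPM with vehicle and 11.0, 12.8 and 12.2 CPM with ISRIB, a log2 difference of -0.63 ± 0.09 (SE; adjusted p = 8.21e-05). Its level rose with time in vehicle with asparagine, from 11.8 ± 0.686 CPM at 6 h to 18.3 ± 0.309 CPM at 24 h (means ± SD, n = 3), and the ISRIB libraries without asparagine at 24 h overlapped the range of the vehicle libraries with asparagine at 6 h.

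DNAJB9 went the other way. It was at 8.61, 7.52 and 9.67 CPM with vehicle and 12.3, 13.6 and 12.5 CPM with ISRIB at 24 h without asparagine, a log2 difference of 0.58 ± 0.13 (SE; adjusted p = 0.0036). Set beside vehicle without asparagine at 6 h, the late level with ISRIB was 12.8 ± 0.651 against 12.8 ± 0.654 CPM (means ± SD, n = 3), values not compared by a test. XBP1 was at 50.2, 55.8 and 48.9 CPM with ISRIB, above every vehicle library at 24 h, with a log2 difference from vehicle without asparagine of 0.27 ± 0.10 (SE; adjusted p = 0.0518) that did not pass. HERPUD1 (-0.17 ± 0.11), ERN1 (0.09 ± 0.10) and HSPA13 (-0.30 ± 0.13) did not pass.

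Members with near-zero differences at 24 h were CALR (-0.07 ± 0.07), P4HB (0.06 ± 0.09), HYOU1 (0.06 ± 0.08), DNAJB11 (0.01 ± 0.12) and OS9 (0.01 ± 0.07). PDIA4 was at -0.14 ± 0.09 and SEL1L at -0.23 ± 0.10. SDF2L1, at 0.65 ± 0.27, had the largest value that did not pass. Within ISRIB-treated cells, withdrawal for 24 h gave 4 higher members (DNAJB9, XBP1, MANF and SEC61B) and 11 lower ones, 42.9% of the members where 22.1% of all genes passed (9.97% higher, 12.2% lower). The lower ones were the same 10 genes as with ISRIB against vehicle, and DERL2 (-0.28 ± 0.10; adjusted p = 0.0472). Both comparisons use the ISRIB libraries without asparagine. With ISRIB and asparagine at 24 h HSP90B1 was at 868, 842 and 1245 CPM, with replicate 3 the highest of all 24 libraries. That library also had the lowest log2 slope per 10 GC points of the 24 (-0.40), beside 0.12 and 0.07 in replicates 1 and 2. Withdrawal within ISRIB-treated cells and the interaction of medium and drug at 24 h both use it. XBP1 had a log2 change of 0.41 ± 0.10 (SE; adjusted p = 0.00415), MANF of 0.30 ± 0.10 (SE; adjusted p = 0.0292) and SEC61B of 0.31 ± 0.10 (SE; adjusted p = 0.0293). Without replicate 3 of ISRIB with asparagine 6 of these 15 calls were made, without replicate 1 of ISRIB without asparagine 7, and without its replicate 3, 8. MANF (adjusted p from 0.0512 to 0.099) and DERL2 (0.0631 to 0.18) lost the call whichever library of this comparison was left out. SEC61B lost it (0.0649 to 0.146) in each such fit but that without replicate 2 of ISRIB with asparagine. All of these also lost it without the filter on low counts, and DERL2 with a correction for transcript GC content (0.123).

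**Figure D3:**
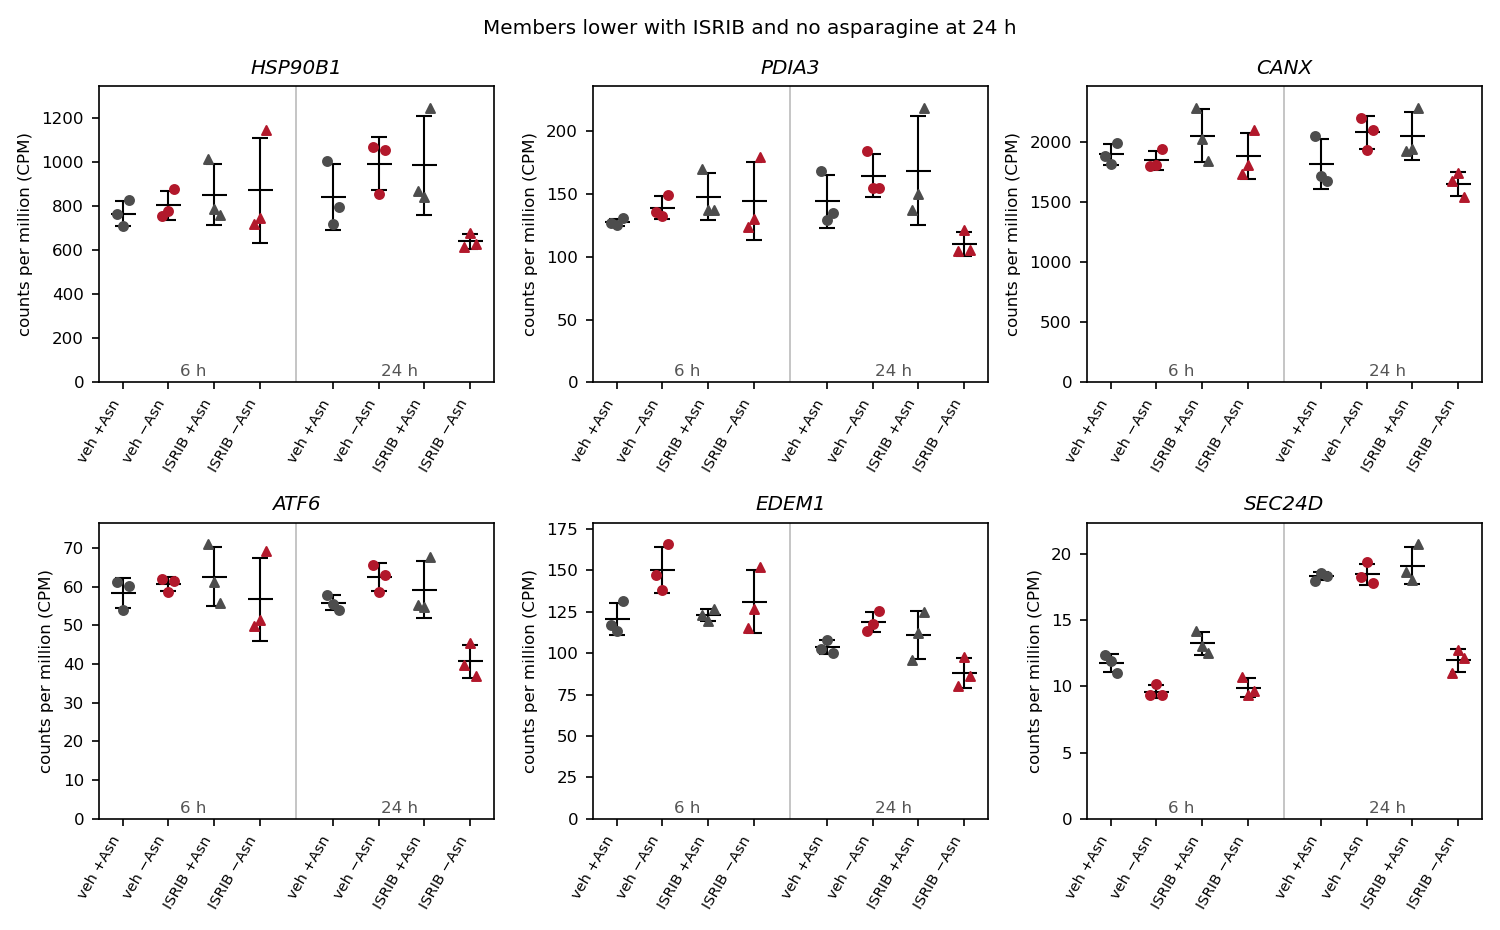
CPM of 6 of the members that were lower with ISRIB and no asparagine at 24 h, in each of the 24 libraries. Points are libraries, bars are the mean and SD of 3, red marks medium without asparagine and triangles mark ISRIB. For HSP90B1 the 3 ISRIB libraries without asparagine at 24 h lie between 615 and 679 CPM, below every vehicle library of that time, and for SEC24D they lie between 11.0 and 12.8 CPM, where the other 24 h libraries are at 17.8 CPM or more.

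The interaction of medium and drug at 24 h was negative in 8 members, 22.9% of those tested, where 9.06% of all genes passed (5.59% negative, 3.47% positive). It was -0.69 ± 0.13 (SE; adjusted p = 0.00251) for SEC24D on the log2 scale, -0.66 ± 0.15 (SE; adjusted p = 0.0111) for HSPA5 and -0.70 ± 0.17 (SE; adjusted p = 0.0131) for ATF6. CANX (-0.51 ± 0.14; adjusted p = 0.0263), PDIA3 (-0.80 ± 0.22; adjusted p = 0.0276) and HSP90B1 (-0.86 ± 0.24; adjusted p = 0.0302) followed. PDIA6 (-0.40 ± 0.11; adjusted p = 0.0303) and EDEM1 (-0.53 ± 0.15; adjusted p = 0.0325) completed the set. Without replicate 1 or replicate 3 of ISRIB without asparagine, replicate 2 or replicate 3 of vehicle with asparagine, or replicate 3 of ISRIB with asparagine 3 calls were made. Without replicate 1 of vehicle without asparagine there were 4, and without its replicate 3 there were 5. SEC24D, HSPA5 and ATF6 passed without each of the 12 libraries in turn.

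Transcript GC content moved with the 24 h result. The 10 lower members had a median GC of 45.0% (37.5% to 49.8%), the other 25 tested members 50.9% (36.6% to 66.1%) and all genes 48.4%. The slope of counts on GC, in log2 per 10 points, was 0.22, -0.05 and 0.16 in the 3 ISRIB libraries without asparagine at 24 h and -0.18, -0.01 and -0.18 in the 3 vehicle libraries. After a correction for that trend 4 members were higher (DNAJB9, XBP1, CREB3L2 and SEC61B) and 12 lower, beside 30.5% of all genes called. Of the 10 lower members 9 stayed called after it, with smaller log2 differences for all but EDEM1: HSP90B1 -0.47, ATF6 -0.43, PDIA3 -0.50, SEC24D -0.51, HSPA5 -0.33, CANX -0.23, PDIA6 -0.19, DNAJC10 -0.21 and EDEM1 -0.44. DERL1 was lost (-0.15, adjusted p = 0.0534), and PDIA4 (-0.23), EDEM2 (-0.24) and CALR (-0.20) were added. At 6 h with vehicle the 6 members that rose were called after the correction too, and SEC24D was called lower, 7 members beside 10.9% of all genes. Without replicate 1 of vehicle or replicate 1 of ISRIB 4 members were called as fitted in the 24 h comparison, in place of 11, while SEC24D, ATF6 and DNAJB9 passed without each of the 6 libraries in turn. The correction gave 13 members for the interaction at 24 h beside 17.6% of all genes, 11 for the ISRIB response between times beside 16.7%, and 12 for 24 h against 6 h in vehicle with asparagine beside 32.8%. The part of GC content in the 24 h result was not tested beyond this correction.

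**Figure D4:**
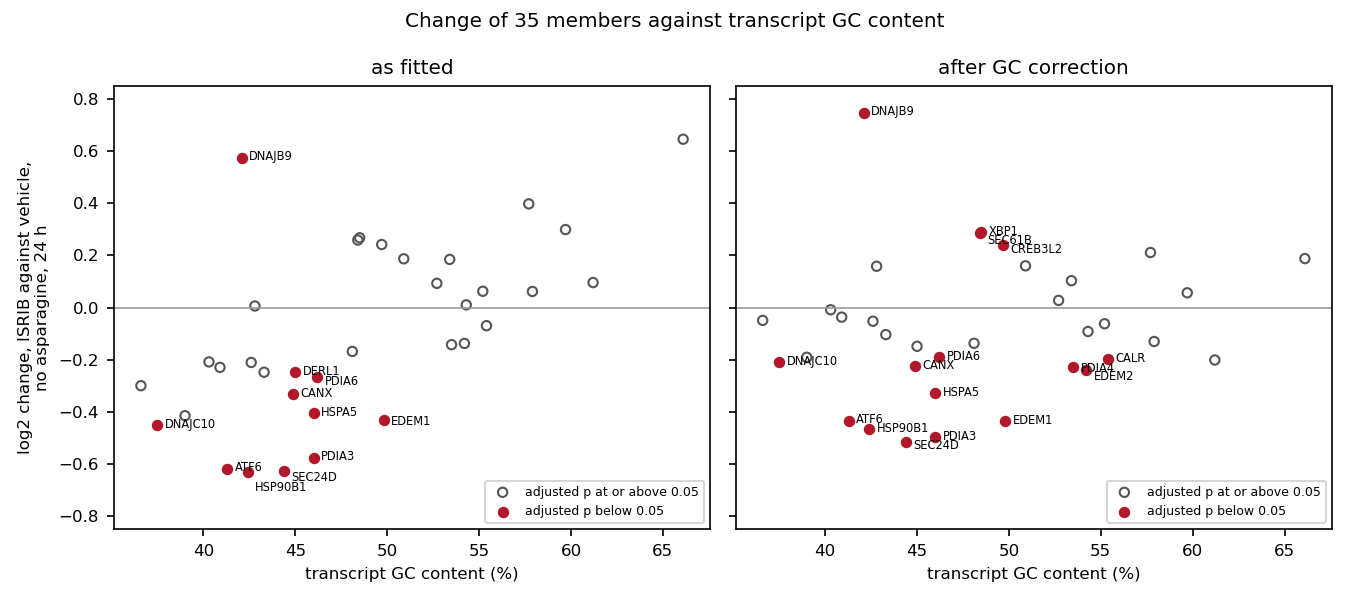
Log2 difference of the 35 tested members with ISRIB against vehicle without asparagine at 24 h, plotted against transcript GC content in percent, as fitted on the left and after GC correction on the right. Red points passed at an adjusted p below 0.05. The lower members lie at or below 49.8% GC as fitted, and after correction PDIA4, EDEM2 and CALR, at 53.5% to 55.4% GC, join them.

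The response to ISRIB without asparagine differed between times in 6 members, 17.1% of those tested, where 7.59% of all genes passed (3.35% positive, 4.24% negative). The difference (24 h minus 6 h) was positive for XBP1 (2.10 ± 0.14; adjusted p = 5.16e-09), HERPUD1 (1.82 ± 0.16; adjusted p = 2.41e-07) and DNAJB9 (1.15 ± 0.19; adjusted p = 0.000599). It was also positive for ERN1 (0.87 ± 0.14; adjusted p = 0.000617) and HSPA13 (0.76 ± 0.18; adjusted p = 0.0151), and it was negative for SEC24D (-0.67 ± 0.14; adjusted p = 0.00439). These 5 positive members fell with ISRIB at 6 h. At 24 h 4 of them did not pass, and DNAJB9 was higher. Time alone, 24 h against 6 h in vehicle with asparagine, changed 4 members, 11.4% of those tested, beside 18.8% of all genes (9.34% higher, 9.47% lower): SEC24D (0.64 ± 0.09; adjusted p = 7.02e-05) and CREB3L2 (0.44 ± 0.09; adjusted p = 0.00177) were higher, and DERL1 (-0.27 ± 0.07; adjusted p = 0.00682) and ERN1 (-0.32 ± 0.10; adjusted p = 0.0325) lower. The ERN1 call was lost without replicate 1 or replicate 2 of either time (adjusted p from 0.0857 to 0.125).

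**Figure D5:**
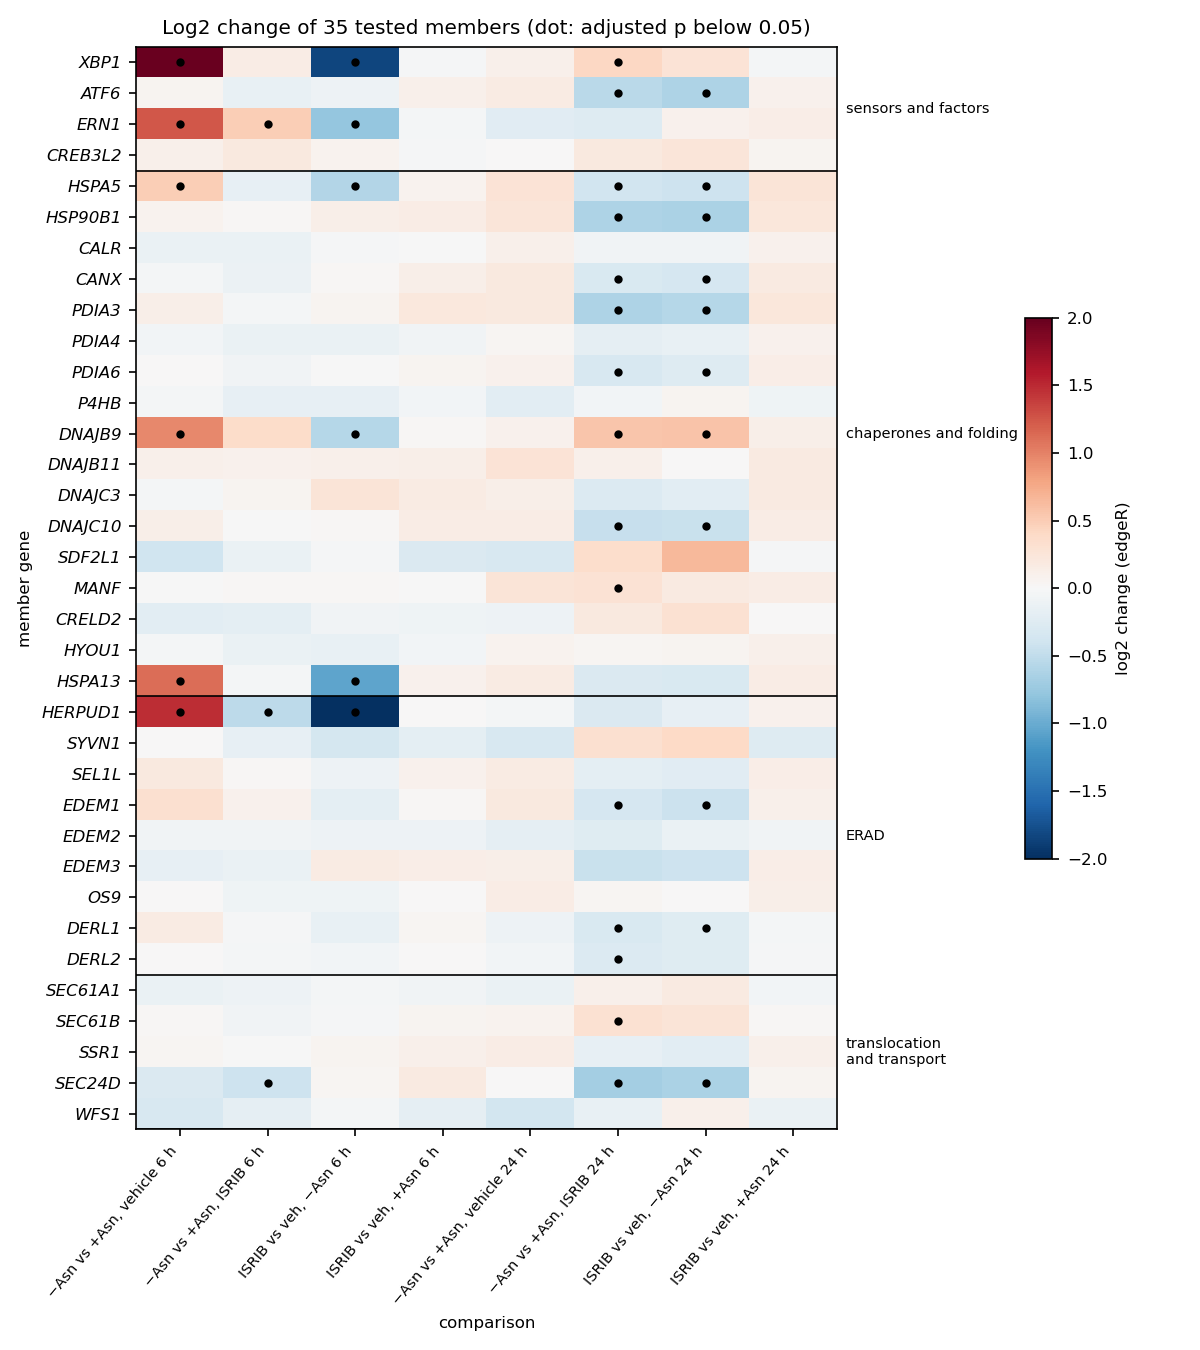
Log2 changes of the 35 tested members in 8 comparisons, ordered by role, with a dot where the adjusted p was below 0.05. Columns are comparisons at 6 h and then 24 h, red is higher and blue lower. At 6 h the dots fall on XBP1, ERN1, HSPA5, DNAJB9, HSPA13 and HERPUD1, with SEC24D in the ISRIB column, and at 24 h they stand in 2 columns: 8 of 17 chaperones and 7 other members for withdrawal with ISRIB, and 7 of 17 chaperones and 4 other members for ISRIB against vehicle without asparagine.

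The levels were also summed over each role, without a test. The sum of the signalling members was 143 ± 4.99 CPM in vehicle with asparagine at 6 h, 297 ± 9.74 without asparagine and 155 ± 17.8 with ISRIB and no asparagine (means ± SD, n = 3). XBP1 alone carried 81.7% of the gain with vehicle and ERN1 15.7%. The ERAD sum was 614 ± 14.5, 708 ± 19.1 and 605 ± 13.9 CPM in the same order. HERPUD1 carried 39.1% of its gain with vehicle. EDEM1 (31.7%), SEL1L (17.9%) and DERL1 (14.2%), which did not pass as fitted, carried most of the rest, and EDEM3 (-2.36%) and EDEM2 (-1.86%) went the other way. The 17 chaperones summed to 6038 ± 113, 6248 ± 192 and 5938 ± 534 CPM. HSPA5 carried 109% of the gain with vehicle and HSPA13 28.0%, while CALR (-32.4%) and CANX (-24.6%) went the other way. The ISRIB mean differed from both vehicle means by less than the SD of its own libraries. At 24 h without asparagine the chaperone sum was 6504 ± 316 CPM with vehicle and 5380.0 ± 83.3 CPM with ISRIB, and CANX (38.0%), HSP90B1 (31.4%) and HSPA5 (12.9%) made up most of that difference. The 5 translocation genes summed to between 562.7 and 593.3 CPM on average in all 8 groups.

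The other genes of the same pathway, 93 in 4 lists that hold none of the members, give the setting. Of them 92 were in the table and tested, and RNF5 was not analysed here. With vehicle at 6 h 4 of the 92 rose and 0 fell, 4.35% beside 4.57% of all genes. All 4 belonged to the 13 signalling genes: the pseudokinase TRIB3 (1.94), the transcription factors DDIT3 (CHOP; 1.5) and ATF4 (0.82), and PPP1R15A (GADD34; 0.81), the eIF2 phosphatase subunit, which is named because it completes the count. None of the 26 folding, 21 ERAD or 32 translocation genes passed. With ISRIB against vehicle without asparagine at 6 h TRIB3 (-2.27), DDIT3 (-1.37) and ATF4 (-0.99) were lower and nothing was higher, and the same 3 had a negative interaction. Withdrawal within ISRIB-treated cells at 6 h raised PPP1R15A (1.10) and called no other gene of the 92.

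At 24 h without asparagine, ISRIB against vehicle gave 9 higher and 12 lower of the 92, 22.8% beside 21.7% of all genes, with a median log2 difference of 0.05. The smallest adjusted p among those lower belonged to MARCH6 (-0.44), an ERAD ubiquitin ligase, PDIA5 (-0.57), a disulfide isomerase, and TRAM1 (-0.49), a translocation helper. Among those higher they belonged to AUP1 (0.49), an ERAD adaptor, RTCB (0.39), the ligase that rejoins XBP1 exons, and DNAJC1 (0.39). DDIT3 (0.60) and PPP1R15A (0.89) were higher at this time and ATF4 (-0.34) lower, chosen for mention after their values were seen. Of the 26 folding genes 3 were higher and 6 lower, of the 32 translocation genes 2 and 3, and of the 21 ERAD genes 1 and 2. Withdrawal with vehicle at 24 h called 0 of the 92.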

How the data were processed

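RNA sequencing of 24 PC9 libraries was analysed from the deposited table of raw read counts per gene. Per the submitters' processing notes the authors used Bowtie2, featureCounts and DESeq2 with build hg38, and versions, roles and strandedness are not given in the sources used here. A deposited table of variance-stabilised log2 expression values by the authors served as an alternative. The edgeR 4.0.16 quasi-likelihood test (R 4.3.3) was fitted with 1 mean per group over all 24 libraries, TMM scaling and filterByExpr, which kept 17409 genes (the genes left out held 0.0751% to 0.098% of the counts of a library) and gave 16 residual degrees of freedom. Adjusted p-values are Benjamini-Hochberg over all genes tested, with a threshold of 0.05, and CPM values use TMM library sizes. The differences in response (interaction of medium and drug, and differences between times) are contrasts of the same fit, and many comparisons share libraries.

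The alternatives were DESeq2 1.42.0, RLE scaling, no filter on low counts, the replicate number as a block, a correction for transcript GC content (per library, a natural spline of df 5 fitted robustly with MASS 7.3.60.0.1), that correction with the block, limma 3.58.1 on the authors' log2 table, and the omission of 1 library at a time. Transcript GC, lengths and coordinates come from GENCODE 29, in which 36620 of the 37411 gene identifiers matched. The fit was tested on data simulated for withdrawal with vehicle at 6 h. It recovered 13 of 50 genes with a true log2 change of 0.5 and 43 of 50 with 1, and called 9 of 16915 unchanged genes.

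All 37 members are named by role, with per-library values for those that passed in withdrawal with vehicle at 6 h, in ISRIB against vehicle without asparagine or in an interaction. Of the other pathway genes up to 3 per direction with the smallest adjusted p are named, and others are said to be chosen later. The members and lists were chosen with earlier results of these data known. Whether equal replicate numbers pair libraries was checked by the correlation of deviations from the group means, which exceeded 0.1 for all 3 numbers for vehicle cells with and without asparagine (0.284 to 0.311 at 6 h, 0.185 to 0.33 at 24 h) and for ISRIB against vehicle without asparagine at 6 h (0.306 to 0.44), and did not in the other 5 comparisons of 2 groups. Promoter sequences are from RefSeq (GRCh38.p14). No entry was used for PDIA3, SEC24D, DERL1 and DERL3.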

Additional observations from a re-analysis of the deposited data

Results flagged for a closer look

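Each of these results was marked because the difference between the effects in 2 groups was itself tested with edgeR's quasi-likelihood test and passed at an adjusted p below 0.05. The withdrawal response at 6 h was smaller with ISRIB than with vehicle, on the log2 scale, for XBP1 (-1.82), HERPUD1 (-2.0), HSPA13 (-1.15), ERN1 (-0.74) and HSPA5 (-0.66). For HERPUD1 the withdrawal effect had opposite signs with vehicle (1.48) and with ISRIB (-0.52).

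At 24 h the withdrawal response was lower with ISRIB than with vehicle for SEC24D (-0.69), HSPA5 (-0.66), ATF6 (-0.70), CANX (-0.51), PDIA3 (-0.80), HSP90B1 (-0.86), PDIA6 (-0.40) and EDEM1 (-0.53). HSPA5 is on both lists, but its value at 6 h missed the threshold under 3 other settings (adjusted p = 0.0557 with RLE scaling, 0.0527 with the replicate block and 0.0792 with limma) and without 10 of the 12 libraries in turn. ERN1 at 6 h missed it without the filter on low counts (adjusted p = 0.0776). At 24 h, 3 to 8 members were called with a library left out, and SEC24D, HSPA5 and ATF6 passed each time. HSP90B1, CANX, EDEM1, PDIA3 and PDIA6 each lost the call in several of those fits.

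The withdrawal response with vehicle was smaller at 24 h than at 6 h for XBP1 (-1.87), ERN1 (-1.46), HERPUD1 (-1.52), HSPA13 (-0.95) and DNAJB9 (-0.87). The difference between ISRIB and vehicle without asparagine was higher at 24 h than at 6 h for XBP1 (2.10), HERPUD1 (1.82), DNAJB9 (1.15), ERN1 (0.87) and HSPA13 (0.76), and lower for SEC24D (-0.67). The call for DNAJB9 in the vehicle response was lost without the filter on low counts (adjusted p = 0.07225) and in some fits with a library left out. That for SEC24D was lost without the filter (adjusted p = 0.0753). These contrasts share libraries, so the lists are not independent of each other.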

How the results depend on the processing

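Of 69 called pairs of a member and a comparison, 1041 values were computed under alternatives: 903 kept their direction and side of the threshold, 138 kept the direction and lost the call (115 of 558 with a library left out, 23 of 483 under the 7 other settings), and 0 reversed. Without the filter on low counts 1 member was called in withdrawal with ISRIB at 6 h, in place of 3. With the GC correction the count was 13 for the interaction at 24 h (8 as fitted), 11 for the ISRIB response between times (6) and 12 for 24 h against 6 h in vehicle with asparagine (4), where 17.6%, 16.7% and 32.8% of all genes were called. With the GC correction and the replicate block it was 5 for withdrawal with ISRIB at 6 h (10.7% of all genes called), 23 for the same at 24 h (15 as fitted; 37.8%), 18 for ISRIB against vehicle without asparagine at 24 h (11 as fitted; 33.8%), 14 for the interaction at 24 h (21.3%), 12 for the ISRIB response between times (20.4%) and 12 for 24 h against 6 h (35.7%). The cause was not tested. With a library left out, counts ran from 1 to 3 for withdrawal with ISRIB at 6 h, 6 to 13 for the same at 24 h, 4 to 12 for ISRIB against vehicle without asparagine at 24 h, 3 to 8 for the interaction at 24 h and 5 to 6 for withdrawal with vehicle at 6 h. Shares of all genes called are not given for these fits or without the filter. A loss particular to the members therefore cannot be told from a general loss of calls.

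With the replicate block alone 7 members were called in withdrawal with vehicle at 6 h (5.7% of all genes), 6 in ISRIB against vehicle without asparagine at 6 h (2.79%) and 0 in withdrawal with vehicle at 24 h (0.00574%), where the numbers pair the libraries. Where that did not hold the block gave 14 calls for ISRIB against vehicle without asparagine at 24 h (25.1%), 16 for withdrawal with ISRIB at 24 h (25.5%), 3 for the same at 6 h (3.19%) and 0 for ISRIB with asparagine at both times. The pairing was not checked for the contrasts of more groups or for 24 h against 6 h. There the block gave 4 and 8 calls for the interactions at 6 h and 24 h (0.827% and 12.8%), 5 for the vehicle response between times (1.55%), 7 for the ISRIB response between times (10.2%) and 5 for 24 h against 6 h (21.4%). With 3 libraries a group, small changes may be missed.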
